A study of Mus musculus with 6 samples.

Results

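The motile cilia genes described here are 42 genes that build or switch on the beating cilia of ependymal cells, the epithelium that lines the brain ventricles. They were taken by name from the 55450 genes counted in each library, and all 42 were found, 40 under the names used here. Dnai1 and Dnai2 stand in the GENCODE M21 annotation as Dnaic1 and Dnaic2. Polyadenylated RNA was sequenced from adult mouse cerebral cortex in 6 libraries. Of these 3 were from mice labelled Setd5 heterozygous and 3 from mice labelled wildtype. Setd5 encodes a SET-domain chromatin protein. The labels name neither the Setd5 allele, the strain nor the sex, and they do not say that the libraries of a genotype came from separate animals, so p-values measure the spread between libraries, which may be technical in part.

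A motile cilium is built on an axoneme, a ring of microtubule doublets around a central pair. Dynein arms on the doublets slide them past each other, radial spokes and the central apparatus time the stroke, and docking and ruler proteins set the spacing. The transcription factors Foxj1 and the RFX family, with Mcidas above them, switch on this set in multiciliated cells. In the brain those cells are the ependyma, whose beating moves cerebrospinal fluid. Cortical neurons and astrocytes carry a single immotile primary cilium in place of motile ones, and some members, such as Rfx3, are also transcribed in neurons.

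Library totals ran from 82850628 to 92860628 counts. A count of 0 would allow at most 0.0323 to 0.0362 CPM (counts scaled to a common library size), for counting error only. Values of a genotype are listed in the order of replicates 1, 2 and 3. Markers of cortical excitatory neurons, all 10 of them, were detected in every library. At this depth detection does not show that a library held cortex alone. Setd5 was at 69.5, 68.7 and 75.3 CPM in the heterozygous libraries, against 111, 97.0 and 108 CPM in the wild type libraries, which goes with the labels. One library of each genotype stood apart. Heterozygous replicate 3 and wild type replicate 3 had 865 and 784 CPM of Xist, the X-inactivation RNA, against at most 0.876 CPM in the other libraries, and 1.65 and 1.77 CPM of the Y-linked gene Ddx3y, against at least 96.5 CPM. These values go with female tissue in the replicates 3 and male tissue in the other libraries. The libraries of a genotype therefore did not all come from a single animal. The same 2 libraries had the highest levels in their genotype of all 11 markers of striatal projection neurons. These summed to 393, 543 and 870 CPM in the heterozygous libraries and to 311, 511 and 1899 CPM in the wild type libraries.

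All 42 members had counts in every library, at low levels. The mean over libraries was under 1 CPM for 7 members, from 1 to under 10 CPM for 32 and at least 10 CPM for 3, with a median of 1.76 CPM. Every member but Mcidas had at least 10 counts in every library, and all 42 passed the filter on low counts. Per kilobase of exon the highest level was that of Ccdc39, at 12.4 CPM per kilobase. It was followed by Rfx3 at 5.55, Rsph9 at 4.29, Cfap69 at 3.53, Rsph1 at 1.89 and Foxj1 at 1.496 CPM per kilobase. The median was 0.364 CPM per kilobase, and Hydin was lowest at 0.0491.

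In edgeR's quasi-likelihood test with Benjamini-Hochberg adjustment over all 27939 genes tested, 0 of the 42 members passed an adjusted p of 0.05, where 0% of all genes tested did. Setd5 itself did not pass in this test, with a log2 difference of -0.56 (SE 0.07, adjusted p = 0.258 in edgeR). A member that was not called may therefore still differ between genotypes. DESeq2 called 1 member, Tmem212, higher in heterozygous cortex, where 0.0573% of all genes tested were called higher and 0.222% in either direction. Tmem212 had been noted as higher in these data before the members were listed. limma-voom called 0, with or without library quality weights. At an unadjusted p under 0.05 edgeR had 7 of 42 members, or 16.7%, against 5.83% of all genes tested. Of these 6 were higher (Tmem212, Ccdc39, Ak7, Dnah3, Cfap46 and Dnaaf1), where 2.44% of all genes tested were, and Rfx3 was lower, where 3.38% were. The fitted level was higher in heterozygous cortex for 33 members, or 78.6%, against 49.9% of all genes tested. The median log2 difference (heterozygous minus wild type) was 0.23 over the members and 0.00 over all genes tested, and no test was made of this median. In bulk tissue a different number of ependymal cells and a different amount of RNA per cell cannot be told apart.

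Heterozygous replicate 3 carried much of that median. Without it the median was 0.02, with 25 members higher and 2 at an unadjusted p under 0.05, where 5.5% of all genes tested in that fit were. Without heterozygous replicates 1 and 2 in turn it was 0.32 and 0.27, and without wild type replicates 1, 2 and 3 in turn it was 0.15, 0.15 and 0.26. With both libraries high in Xist left out, which leaves 2 libraries per genotype, it was 0.12, with 28 members higher. Between the high-Xist libraries alone, heterozygous replicate 3 was above wild type replicate 3 for 34 members, with a median log2 ratio of 0.34 and no test possible. With high Xist as a covariate in edgeR the median was 0.23, and with the striatal level as a covariate it was 0.25. With the choroid plexus level as a covariate it was 0.44, with 38 members higher.

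**Figure D1:**
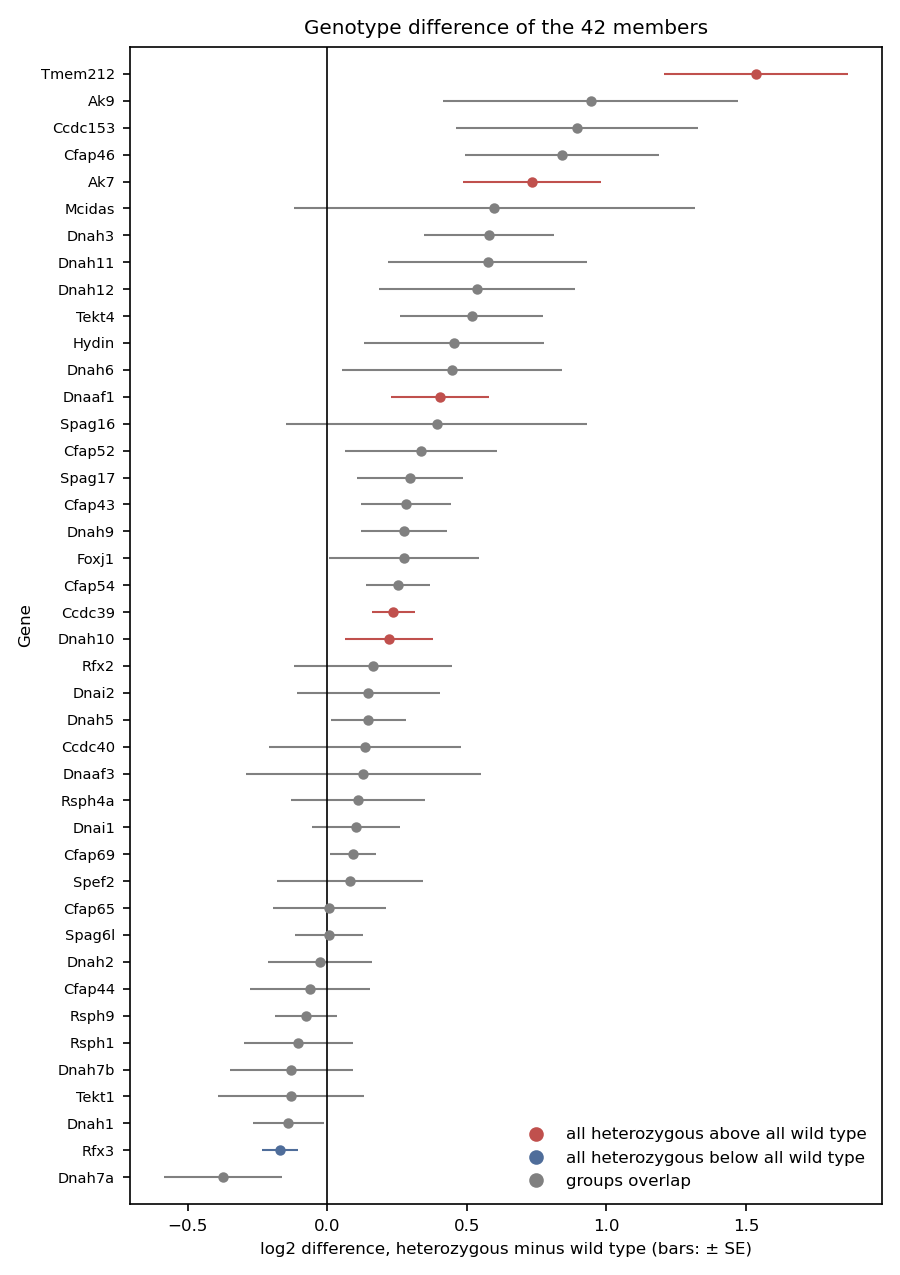
Log2 difference (heterozygous minus wild type, x axis) of each of the 42 members (y axis), with bars of 1 standard error from edgeR. Red points are the 5 members with every heterozygous library above every wild type library, the blue point is Rfx3, with the opposite order, and groups overlap for the grey points.

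The members also differed between libraries of 1 genotype. Within the heterozygous group 39 of 42 were highest in replicate 3, against 37.2% of all genes tested. In the wild type group 26, or 61.9%, were highest in replicate 3, against 36.1% of all genes tested. Both held for 24 members, or 57.1%, against 14.2% of all genes tested. Over all 6 libraries 31 members were highest in heterozygous replicate 3, 7 in wild type replicate 3, and none in heterozygous replicate 1 or wild type replicate 2. Of the members 7 exceeded the mean of the other libraries of their genotype by over 1.5 times in both replicates 3: Foxj1, Ccdc153, Dnah6, Dnah11, Rsph4a, Spag16 and Ak9. These are the libraries with high striatal markers, high Xist and low Ddx3y, and the part of these in the member levels was not tested.

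**Figure D2:**
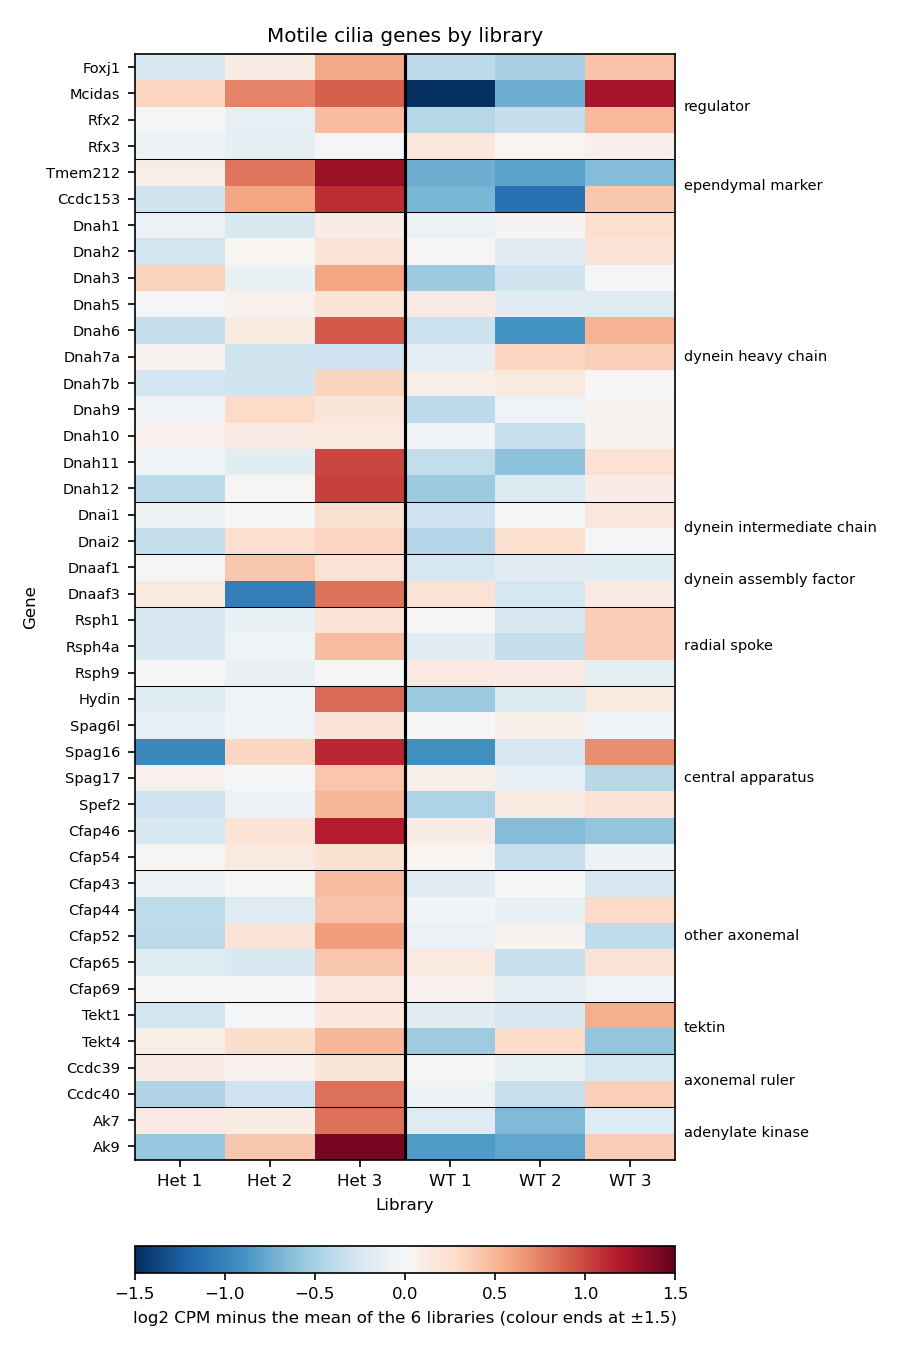
Level of each member (rows, grouped by role) in each library (columns), as log2 CPM minus the mean of the 6 libraries. Red is above and blue below that mean. The column of heterozygous replicate 3 is red for most members, wild type replicate 3 is red for a part of them, and Tmem212 is blue in all 3 wild type libraries.

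Tmem212, a small membrane protein gene used as an ependymal marker, had the largest difference and the smallest p of the members. It was listed after being noted as higher in earlier results of these data, so its rank, call and separation are no independent support. Its minus-strand gene (ENSMUSG00000043164.3) spans bases 27866066 to 27896368 of chromosome 3 in GRCm38, and no exon base is shared with another gene. Its level was 0.609, 0.995 and 1.40 CPM in the heterozygous libraries, against 0.343, 0.326 and 0.363 CPM in the wild type libraries. Every heterozygous library was above every wild type library, and the wild type libraries lay close together while the heterozygous ones spread. Heterozygous cortex averaged 1.00 ± 0.393 CPM and wild type cortex 0.344 ± 0.0186 CPM (SD, n = 3 each). The log2 difference was 1.54 (SE 0.33), ranked 35 of all genes tested by p, with an adjusted p of 0.720 in edgeR and 0.0292 in DESeq2. The two-sided exact permutation p was 0.1, the lowest possible with 3 libraries per genotype. With each library left out in turn its log2 difference ran from 1.21, without heterozygous replicate 3, to 1.79, without heterozygous replicate 1. It was 1.26 without the high-Xist libraries, and 1.57 and 1.91 with the striatal and the choroid plexus level as a covariate.

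Ccdc153, a coiled-coil protein gene that also marks ependyma, was at 0.914, 1.69 and 2.43 CPM in the heterozygous libraries, against 0.698, 0.517 and 1.49 CPM in the wild type libraries. Replicate 3 was the highest of each genotype, and the groups overlapped because wild type replicate 3 was above heterozygous replicate 1. The log2 difference was 0.89 (SE 0.43, adjusted p = 0.864 in edgeR; two-sided exact permutation p = 0.2). Leaving out heterozygous replicate 3 gave 0.52, and leaving out wild type replicate 3 gave 1.46. Foxj1, the forkhead factor that drives the motile cilia genes, was at 3.22, 4.06 and 5.603 CPM in the heterozygous libraries, against 2.89, 2.70 and 5.07 CPM in the wild type libraries. Here too replicate 3 was high in both genotypes and the groups overlapped, with a log2 difference of 0.27 (SE 0.27, adjusted p = 0.909; two-sided exact permutation p = 0.5). Those same omissions gave 0.03 and 0.62.

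Tmem212 was compared by library with Foxj1 and Ccdc153. Relative to the mean of wild type replicates 1 and 2, wild type replicate 3 had 2.45 times the level of Ccdc153 and 1.82 times that of Foxj1, but 1.09 times that of Tmem212. In heterozygous replicate 3 the folds over the other heterozygous libraries were 1.87 for Ccdc153, 1.54 for Foxj1 and 1.74 for Tmem212. As a share of the Foxj1 level in CPM, Tmem212 was 18.9%, 24.5% and 24.9% in the heterozygous libraries, against 11.9%, 12.1% and 7.16% in the wild type libraries. As a share of the Ccdc153 level it was 66.7%, 59.0% and 57.5% in the heterozygous libraries, against 49.2%, 63.0% and 24.4% in the wild type libraries. The share of Foxj1 did not overlap between genotypes and the share of Ccdc153 did. These shares were chosen after the values were seen and are given with no test.

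**Figure D3:**
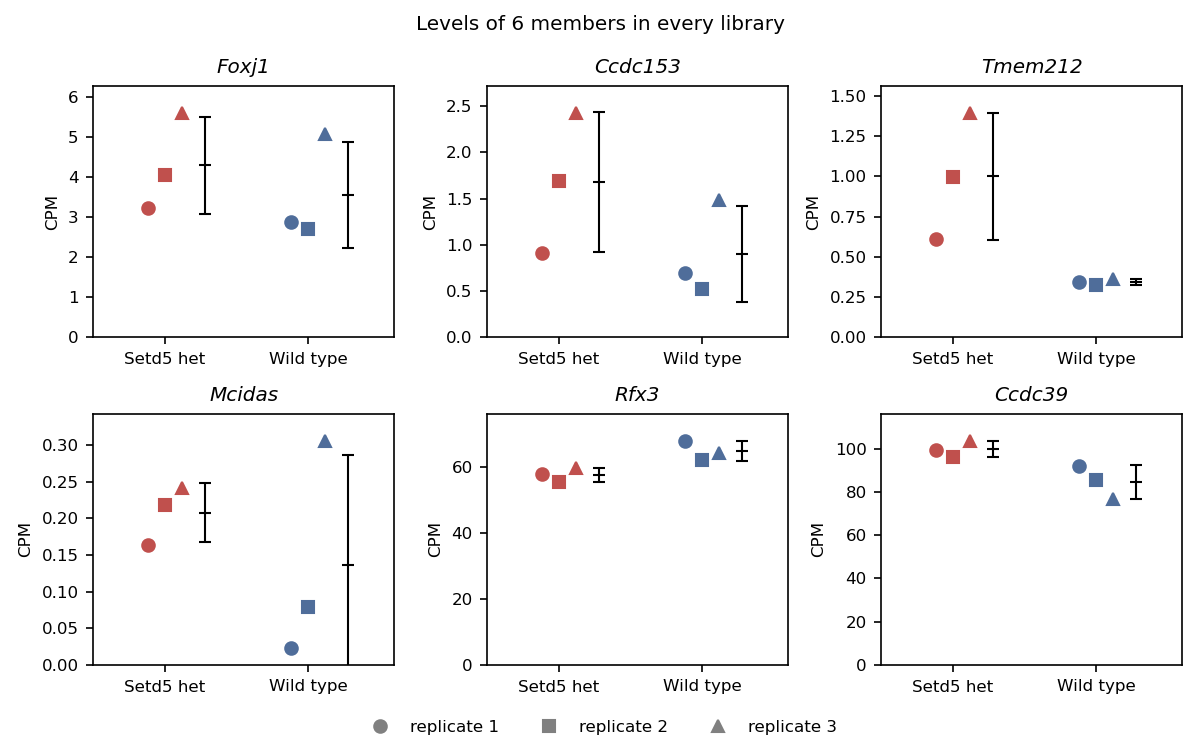
CPM (y axis, from 0) of 6 members in heterozygous and wild type cortex. Each symbol is 1 library and the bar is the mean ± SD of 3 libraries, cut off at 0 for Mcidas in wild type cortex. Replicate 3 is the highest library of both genotypes for Foxj1, Ccdc153, Tmem212 and Mcidas, the groups overlap for Foxj1, Ccdc153 and Mcidas, and Rfx3 is lower in heterozygous cortex while Ccdc39 is higher there.

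The bases before the start of 3 members are shown because RFX and forkhead factors are the known switches of this set. Sequences are from RefSeq's GRCm38.p6 table, which held 35 of the 42 members. Foxj1 is among the other 7. The 250 bases before the RefSeq start were searched on both strands for the RFX half-site GTTGCCA, which reads TGGCAAC on the other strand. They were also searched for the forkhead motif GTAAACA. The third search was for the palindromic RFX X-box, whose left part was taken as GTTNCC and whose right part, after a gap of 0 to 3 bases, as GGNAAC. A half-site and an X-box can overlap. The half-site was in 5 of 35 members (Cfap44, Dnah7b, Hydin, Mcidas and Tekt1), or 14.3%, against 4.19% of the 27025 genes in the table. The forkhead motif was in 2 (Ak7 and Cfap43), or 5.71%, against 3.54%, and the X-box in none, against 0.788%. These counts hold for the patterns as written. Looser forms of each motif were not searched, so a window with no match may still hold one. Letters that match are a description and not a site. Capitals mark motif matches in the lines below, which run 5′ to 3′ along the gene's strand.

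Cfap44, chr16:44394549-44394798, plus strand: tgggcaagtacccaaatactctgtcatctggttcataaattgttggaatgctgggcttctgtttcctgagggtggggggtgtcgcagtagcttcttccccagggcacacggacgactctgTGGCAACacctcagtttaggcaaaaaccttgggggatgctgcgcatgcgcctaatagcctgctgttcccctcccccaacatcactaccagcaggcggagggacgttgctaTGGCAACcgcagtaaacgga

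Tekt1, chr11:72361883-72362132, minus strand: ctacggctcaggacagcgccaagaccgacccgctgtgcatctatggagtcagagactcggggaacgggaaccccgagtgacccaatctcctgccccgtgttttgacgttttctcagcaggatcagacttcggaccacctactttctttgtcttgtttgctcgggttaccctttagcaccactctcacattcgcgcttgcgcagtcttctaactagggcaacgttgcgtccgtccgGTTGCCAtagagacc

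Tmem212, chr3:27896369-27896618, minus strand: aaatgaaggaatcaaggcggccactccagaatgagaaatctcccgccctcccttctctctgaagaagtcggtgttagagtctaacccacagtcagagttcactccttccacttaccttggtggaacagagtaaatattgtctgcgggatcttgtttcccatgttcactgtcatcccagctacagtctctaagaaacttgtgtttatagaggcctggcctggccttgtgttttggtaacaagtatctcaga

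Cfap44 held the half-site at positions -130 to -124 and again at -20 to -14 from its start, and Tekt1 at -15 to -9. Positions count from the RefSeq start. In GENCODE M21 the minus-strand Tekt1 gene reaches to base 72362442, so its printed window lies inside that annotated gene, in no exon of it. The window of Tmem212, the member with the largest genotype difference, held none of the motifs in the forms searched. Of the 5 members with the half-site, Cfap44 (log2 difference -0.06), Dnah7b (-0.13) and Tekt1 (-0.13) had a lower fitted level in heterozygous cortex, and Hydin (0.45) and Mcidas (0.60) a higher one.

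Among the other regulators Mcidas, which starts the multiciliated cell programme upstream of Foxj1, was at the edge of detection. It had 15, 18 and 22 counts in the heterozygous libraries, against 2, 7 and 27 counts in the wild type libraries. That is 0.163, 0.218 and 0.242 CPM in heterozygous cortex, against 0.0237, 0.0786 and 0.306 CPM in wild type cortex. The highest library was a wild type one, and the log2 difference of 0.60 had an SE of 0.72 (edgeR adjusted p = 0.920). Rfx2, which acts with Foxj1 at cilia genes, was at 1.29, 1.21 and 1.82 CPM in the heterozygous libraries, against 0.982, 1.03 and 1.85 CPM in the wild type libraries. Replicate 3 was again the highest in both genotypes, and the log2 difference was 0.16 (SE 0.28).

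Rfx3, an RFX factor that neurons also transcribe, went the other way. Its level was 57.8, 55.3 and 59.7 CPM in the heterozygous libraries, against 67.9, 62.1 and 64.3 CPM in the wild type libraries. Every heterozygous library was below every wild type library, with a log2 difference of -0.17 (SE 0.06) and an unadjusted p of 0.0254 (adjusted p = 0.838 in edgeR). Replicate 3 was not the highest of the wild type libraries here. In all, 6 members had groups that did not overlap, or 14.3%, against 11.7% of all genes tested. Besides Tmem212 and Rfx3 these were Ccdc39, Ak7, Dnaaf1 and Dnah10, all higher in heterozygous cortex. That makes 5 members higher, against 5.88% of all genes tested, and 1 lower, against 5.85%.

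The 11 dynein heavy chains, the motor subunits of the arms, had log2 differences from -0.37 to 0.58 with a median of 0.22, and 7 were higher in heterozygous cortex. Dnah3, an inner arm chain, had the smallest p of them. It was at 1.66, 1.23 and 1.98 CPM in the heterozygous libraries, against 0.899, 1.07 and 1.29 CPM in the wild type libraries, and heterozygous replicate 2 lay inside the wild type range. Its log2 difference was 0.58 (SE 0.23, adjusted p = 0.844 in edgeR), and Lyrm1 on the opposite strand shares 10.5% of its exon bases. Dnah11, an outer arm chain, was at 0.805, 0.752 and 1.68 CPM in the heterozygous libraries, against 0.651, 0.550 and 0.975 CPM in the wild type libraries. Both replicates 3 stood above the rest of their genotype. Dnah9, another outer arm chain, was at 3.51, 4.42 and 4.09 CPM in the heterozygous libraries, against 2.76, 3.45 and 3.72 CPM in the wild type libraries, with overlapping groups and a log2 difference of 0.27 (SE 0.15).

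Dnah1, an inner arm chain and the heavy chain with the highest level per kilobase, was at 6.88, 6.23 and 7.90 CPM in the heterozygous libraries, against 6.91, 7.53 and 8.71 CPM in the wild type libraries. The groups overlapped and the log2 difference was -0.14 (SE 0.13). Dnah7a was at 1.36, 1.07 and 1.06 CPM in the heterozygous libraries, against 1.20, 1.64 and 1.68 CPM in the wild type libraries, and was one of only 3 members not highest in replicate 3 of the heterozygous group. It has near-identical copies, Dnah7b among them, and its count is therefore uncertain. The other heavy chains had log2 differences of 0.54 for Dnah12, 0.45 for Dnah6, 0.22 for Dnah10, 0.15 for Dnah5, -0.03 for Dnah2 and -0.13 for Dnah7b. Dnah10 did not overlap between genotypes, at 2.45 to 2.59 CPM in heterozygous and 1.83 to 2.42 CPM in wild type cortex. Its unadjusted p was 0.191.

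Dnai1 and Dnai2, intermediate chains that hold the outer arm together, were close to level between genotypes. Dnai1 was at 3.45, 3.66 and 4.27 CPM in the heterozygous libraries, against 2.92, 3.58 and 4.09 CPM in the wild type libraries, with overlapping groups. Log2 differences were 0.10 (SE 0.16) for Dnai1 and 0.15 (SE 0.26) for Dnai2. Dnaaf1, which helps assemble dynein arms in the cytoplasm, was at 1.68, 2.27 and 1.99 CPM in the heterozygous libraries, against 1.43, 1.54 and 1.51 CPM in the wild type libraries. Its groups did not overlap and replicate 2 was the highest of both genotypes. The log2 difference was 0.40 (SE 0.18, adjusted p = 0.855 in edgeR), and Taf1c on the opposite strand shares 20.7% of its exon bases. Dnaaf3, the other assembly factor, had a log2 difference of 0.13 (SE 0.42).

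The 3 radial spoke genes were close to level between genotypes. Rsph9, the most abundant per kilobase, was at 6.83, 6.39 and 6.86 CPM in the heterozygous libraries, against 7.54, 7.47 and 6.19 CPM in the wild type libraries. Wild type replicate 3 was the lowest library, unlike for most members. Log2 differences were -0.08 (SE 0.11) for Rsph9, -0.10 (SE 0.20) for Rsph1 and 0.11 (SE 0.24) for Rsph4a.

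All 7 members of the central apparatus had a higher fitted level in heterozygous cortex, from 0.01 to 0.84 on the log2 scale with a median of 0.30. That of Spag6l, the lowest, turned negative under 7 of the 18 alternative fits. Cfap46 had the largest difference of them, at 2.44, 3.31 and 6.49 CPM in the heterozygous libraries, against 3.10, 1.83 and 1.91 CPM in the wild type libraries. Heterozygous replicate 3 stood above all other libraries and heterozygous replicate 1 lay inside the wild type range. The log2 difference of 0.84 (SE 0.35, adjusted p = 0.844 in edgeR) was 0.33 without heterozygous replicate 3 and 0.22 without both high-Xist libraries. Unlike Foxj1 and Ccdc153, Cfap46 was not high in wild type replicate 3.

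Cfap54 was at 9.95, 10.8 and 11.5 CPM in the heterozygous libraries, against 10.01, 7.76 and 9.33 CPM in the wild type libraries, with a log2 difference of 0.25 (SE 0.11). Its groups overlapped by a narrow margin. Spag6l, a central apparatus protein gene with a close copy elsewhere in the genome, was at 4.82, 5.01 and 5.999 CPM in the heterozygous libraries, against 5.23, 5.53 and 5.01 CPM in the wild type libraries. Its log2 difference was 0.01 (SE 0.12). Hydin, Spag16, Spag17 and Spef2, further parts of the central pair, had log2 differences of 0.45, 0.39, 0.30 and 0.08.

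Of the other axonemal genes Cfap43 was at 3.82, 4.09 and 5.59 CPM in the heterozygous libraries, against 3.62, 4.02 and 3.46 CPM in the wild type libraries. Heterozygous replicate 3 was again the highest, and the log2 difference was 0.28 (SE 0.16). Cfap69, which in mouse is also found in the cilia of olfactory neurons, was far more abundant, at 27.7, 27.2 and 31.3 CPM in the heterozygous libraries, against 29.0, 25.3 and 26.7 CPM in the wild type libraries. Its log2 difference was 0.09 (SE 0.08). Cfap52, Cfap65 and Cfap44 had log2 differences of 0.34, 0.01 and -0.06. Of the tektins, which run along the doublets, Tekt4 was at 1.55, 1.75 and 2.04 CPM in the heterozygous libraries, against 1.01, 1.75 and 0.964 CPM in the wild type libraries. Wild type replicate 2 fell among the heterozygous libraries, and the log2 difference was 0.52 (SE 0.26). That of Tekt1 was -0.13 (SE 0.26).

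Ccdc39 and Ccdc40 form the molecular ruler that spaces dynein arms and spokes, yet their counts were far apart. Ccdc39 was at 99.5, 96.3 and 104 CPM in the heterozygous libraries, against 92.1, 85.6 and 76.6 CPM in the wild type libraries. Every heterozygous library was above every wild type library, with a log2 difference of 0.24 (SE 0.08) and an unadjusted p of 0.0117 (adjusted p = 0.811 in edgeR). Its minus-strand gene spans bases 33812362 to 33844310 of chromosome 3, and Ttc14 on the plus strand shares 16.9% of its exon bases. Since the libraries carry no strand information, reads of the shared part cannot be told apart. Ttc14 was at 375.5, 363 and 392 CPM in the heterozygous libraries, against 385, 346 and 315 CPM in the wild type libraries, so wild type replicate 3 was the lowest library for both genes. Its part in the Ccdc39 counts was not tested. Ccdc40 was at 1.08 to 2.62 CPM in heterozygous and 1.16 to 1.89 CPM in wild type cortex, highest in replicate 3 of each, with a log2 difference of 0.14 (SE 0.34).

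The 2 adenylate kinases, which balance adenine nucleotides in the axoneme, were among the members with the larger differences. Ak7 was at 1.66, 1.66 and 2.73 CPM in the heterozygous libraries, against 1.34, 0.966 and 1.34 CPM in the wild type libraries, and its groups did not overlap. The log2 difference was 0.73 (SE 0.25), with an unadjusted p of 0.0147 (adjusted p = 0.828 in edgeR). It was 0.45 without heterozygous replicate 3. Ak9 was at 0.272, 0.534 and 1.09 CPM in the heterozygous libraries, against 0.225, 0.236 and 0.522 CPM in the wild type libraries. Both replicates 3 were high, the groups overlapped and the log2 difference was 0.94 (SE 0.53).

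Further motile cilia genes outside the 42 were examined next, as a list of 62 genes of dynein arms, assembly, docking, nexin links, central pair and multiciliation. Of the 60 that passed the filter 0 were called by edgeR and 0 by DESeq2, against 0% and 0.222% of all genes tested. At an unadjusted p under 0.05 edgeR had 6 higher and 1 lower, or 11.7%, against 5.83% of all genes tested. The median log2 difference was 0.05. The fitted level was higher for 38, or 63.3%, against 49.9% of all genes tested, and lower for 22. That excess rested on heterozygous replicate 3, without which 29 were higher and 31 lower, with a median of -0.01. Within the heterozygous group 43 of the 60, or 71.7%, were highest in replicate 3, against 37.2% of all genes tested. Dnali1, an inner arm light intermediate chain, had the smallest p, at 2.58, 2.03 and 3.60 CPM in the heterozygous libraries, against 1.92, 1.66 and 1.70 CPM in the wild type libraries. Ccno, a cyclin-like gene that multiciliated cells need to amplify centrioles, lay on the other side, at 0.261, 0.291 and 0.549 CPM in the heterozygous libraries, against 0.663, 0.607 and 0.919 CPM in the wild type libraries. Neither gene's groups overlapped, which held for 16.7% of this list and 11.7% of all genes tested. Log2 differences were 0.64 (SE 0.22) for Dnali1 and -0.99 (SE 0.35) for Ccno, each with an adjusted p of 0.828 in edgeR. Rsph10b, a radial spoke gene, had a log2 difference of 0.45 (SE 0.16).

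Further ependymal genes, some of which also belong to cilia, were read beside the members, and 9 of 10 were highest in replicate 3 of the heterozygous group and 6 of 10 in replicate 3 of the wild type group. All 10 were tested and had a higher fitted level in heterozygous cortex, against 49.9% of all genes tested, with a median log2 difference of 0.34. Of these 0 were called by edgeR or DESeq2. At an unadjusted p under 0.05 edgeR had 2, or 20%, against 5.83% of all genes tested. Without heterozygous replicate 3 the median was 0.15, with 7 of 10 higher. Mia, a secreted protein gene, was at 0.816, 0.594 and 0.813 CPM in the heterozygous libraries, against 0.473, 0.371 and 0.476 CPM in the wild type libraries, with no overlap. Its log2 difference was 0.75 (SE 0.27, adjusted p = 0.828 in edgeR). Groups did not overlap for 20% of this list, against 11.7% of all genes tested. Sntn, a protein gene of the ciliary tip, and Dynlrb2, a dynein light chain gene, had log2 differences of 1.24 (SE 0.50) and 0.59 (SE 0.29), with overlapping groups. Their list level, a mean log2 CPM with the wild type mean set to 0, was 0.28, 0.24 and 0.76 in the heterozygous libraries and -0.07, -0.09 and 0.16 in the wild type libraries. For the 42 members it was -0.01, 0.17 and 0.64 in the heterozygous libraries and -0.12, -0.11 and 0.23 in the wild type libraries, so that the member levels overlapped between genotypes.

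Genes of the primary cilium and of intraflagellar transport, which neurons and astrocytes also use, varied far less between libraries. The level of the 38 genes lay between 0.04 and 0.05 in heterozygous and between -0.02 and 0.03 in wild type libraries, with a median log2 difference of 0.03 and 0 called by edgeR or DESeq2. The fitted level was higher for 25, or 65.8%, against 49.9% of all genes tested. Groups did not overlap for 23.7%, with 8 higher and 1 lower, against 11.7% of all genes tested. Against 5.83% of all genes tested, 3 of the 38, or 7.89%, had an unadjusted p under 0.05 in edgeR, all higher. These were the transport genes Ift88 (0.23, SE 0.08) and Ift74 (0.20, SE 0.08) and the receptor gene Gpr161 (0.31, SE 0.12).

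**Figure D4:**
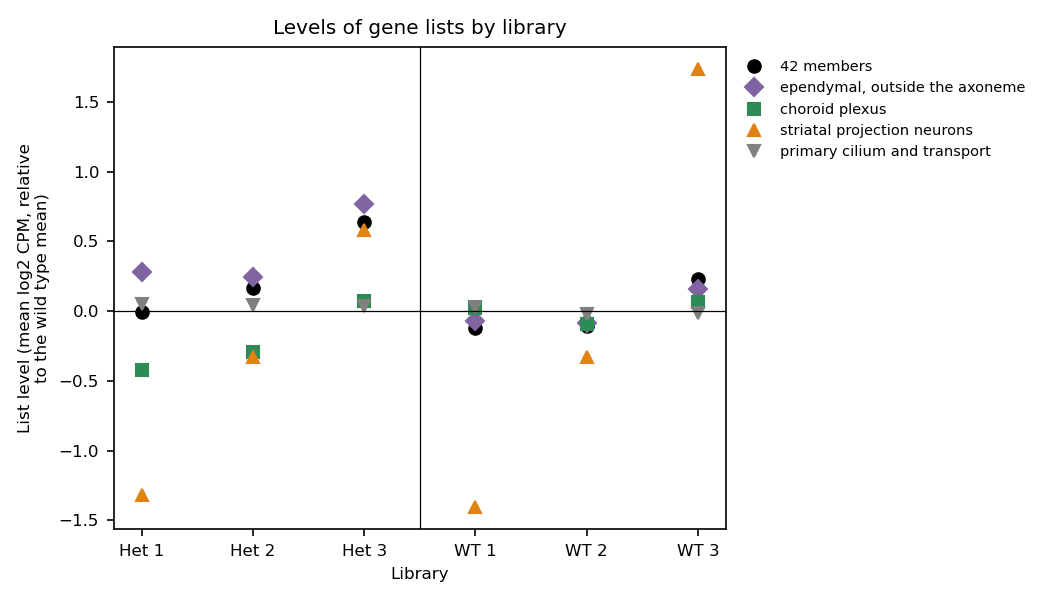
Level of 5 gene lists in each library, as mean log2 CPM relative to the wild type mean. The 42 members and the further ependymal genes (labelled outside the axoneme, though some belong to cilia) are highest in replicate 3 of each genotype. The striatal markers vary most and are highest in the same libraries, and primary cilium genes stay between -0.02 and 0.05.

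Markers of other tissues and cell types, only some of which border the ventricles, were read beside these levels. The 15 choroid plexus markers summed to 6.81, 9.27 and 11.6 CPM in the heterozygous libraries and to 9.89, 10.1 and 16.0 CPM in the wild type libraries, and Otx2, a defining transcription factor, was at 0 in heterozygous replicates 1 and 2 and in wild type replicate 1. Of the 13 tested 3 had a higher and 10 a lower fitted level, with a median log2 difference of -0.28, which was -0.13 without wild type replicate 1 and -0.19 without heterozygous replicate 3. Kl, the klotho gene, had the smallest p, with a log2 difference of -0.91 (SE 0.23, adjusted p = 0.754 in edgeR). Markers of subventricular progenitors and neuroblasts summed to 152 to 174 CPM in heterozygous and 157 to 170 CPM in wild type libraries, all 10 detected throughout, with 7 of 10 higher and a median of 0.06. Of these 10 markers 8 were highest in replicate 3 of the heterozygous group and 1 in replicate 3 of the wild type group. With heterozygous replicate 3 left out 4 of 10 were higher, with a median of -0.04. Striatal markers had a median log2 difference of -0.53, with all 11 lower in heterozygous cortex and 0 at an unadjusted p under 0.05. That sign rested on wild type replicate 3, without which the median was 0.64 and all 11 were higher. The 10 astrocyte markers summed to 4903 to 5218 CPM in heterozygous and 5138 to 5331 CPM in wild type libraries, with a median of -0.06. The 11 meningeal fibroblast markers summed to 108 to 127 CPM in heterozygous and 110 to 237 CPM in wild type libraries, with a median of -0.61. Their list level was -0.51, -0.71 and -0.48 in the heterozygous libraries and 0.18, 0.52 and -0.70 in the wild type libraries, so that wild type replicate 3 lay within the heterozygous range. Without wild type replicate 2 the median was -0.34. Of the 11 markers 6 were lower at an unadjusted p under 0.05 in edgeR, where 3.38% of all genes tested were. DESeq2 called 1 lower, where 0.165% of all genes tested were. The part of these tissues in the member levels was not tested.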

How the data were processed

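The 3 Setd5 heterozygous and 3 wild type libraries of adult mouse cerebral cortex were grouped by labelled genotype. Polyadenylated RNA, extracted with Trizol and cleared of DNA with DNase I, went into a TruSeq kit that marks no strand, per the labels' protocols. Raw counts per gene, not normalized, were deposited by the authors. The submitters' processing notes list DESeq2, featureCounts, FastQC and Bowtie2 2.3.4.3, and the builds GRCm38.p6 and mm10. How overlapping genes and multiple matches were handled is not given in the sources used here. Such reads may be split or lost, and the effect of this on levels and on genotype differences was not tested.

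All 55450 identifiers matched GENCODE M21 (GRCm38), which supplied symbols, positions and exon lengths. The members and lists were chosen with earlier results of these data known. Genes were kept by filterByExpr (minimum count 10, minimum total 15), which left 27939, and scaled by TMM. The quasi-likelihood test of edgeR 4.0.16 (R 4.3.3) compared the genotypes, adjusted by Benjamini-Hochberg over all of them, at a threshold of 0.05. CPM uses effective library sizes, list levels a prior count of 1, and the limit of a 0 takes 3 counts. Exact permutation tests were two-sided. Values in every library are given for Foxj1, Tmem212, Ccdc153, Mcidas, Rfx2 and Rfx3, for the 12 other members of smallest p, and for the member of highest level per kilobase in each role. From each other list of cilia or ependymal genes up to 3 of smallest p with a mean of at least 0.1 CPM are named. Promoters to print were those of up to 4 members of highest level with an RFX motif. Of these, Dnah7b and Hydin were left out because over 30 bases of their windows are exon in GENCODE M21, and Tmem212 was added after its values were seen. Alternatives were DESeq2 1.42.0, limma 3.58.1 (voom), other scalings and filters, covariates and libraries left out, with high Xist as a covariate chosen after seeing the data.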

Additional observations from a re-analysis of the deposited data

How the results depend on the processing

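No paired analysis was possible because replicate numbers only follow record order and pair nothing across genotypes. Of 410 recomputed log2 differences of 23 named members under 18 alternative fits, 400 kept direction and call. The DESeq2 call of Tmem212 (1.54) was the only one gained, so members called became 1 there, and none was lost. Tmem212 did not pass the filter of at least 1 CPM in 3 libraries. Signs turned, with adjusted p from 0.852 to 0.9998, for 3 members. With each library left out in turn, Rfx2 ran from -0.0429 (heterozygous replicate 3 out) to 0.52, Dnai1 from -0.0157 (wild type replicate 1 out) to 0.22, and Spag6l from -0.10 (heterozygous replicate 3 out) to 0.0631, with -0.0269 when wild type replicate 3 was out. Spag6l was also -0.0053 with upper quartile scaling, -0.0090 with library totals, -0.0046 with every gene that had a count, -0.0352 with quality weights and -0.13 without the high-Xist libraries.

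Over all genes, edgeR called 1 higher and 5 lower with every gene that had a count, DESeq2 16 and 46, limma-voom with quality weights 1 and 1, and edgeR at an adjusted p under 0.1 called 1 and 0. With 1 library left out it called 0 higher and 0 to 2 lower. Members at an unadjusted p under 0.05, 7 in all, became 16 with the striatal level and 15 with the choroid plexus level as a covariate, where 6.49% and 3.49% of all genes tested in the same fits were. They became 4 without the high-Xist libraries, against 7.89% of all genes, and 2 to 13 with 1 library left out, against 3.07% to 8.89%. Setd5 passed with every gene that had a count (-0.57), in DESeq2 (-0.57) and with quality weights (-0.59). Promoters with an RFX motif numbered 7 with all 300 bases searched, against 5, and the median over all genes tested stayed between -0.02 and 0.01 in every fit. The cause of these shifts was not tested. Counting error is widest for Mcidas, which had 2 to 27 counts per library.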
